A study of Mus musculus with 6 samples.

Results

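JAK kinases and STAT factors form a short relay from cytokine receptors to genes, and 9 of its genes were examined here among the 54532 genes of an RNA-seq table of mouse peritoneal macrophages (PMs). They were taken by symbol and were the kinases Jak1, Jak2 and Tyk2 and the transcription factors Stat2, Stat3, Stat4, Stat5a, Stat5b and Stat6, that is 3 kinases and 6 factors. PMs came from male wild-type C57BL/6J mice of 6 to 8 weeks, harvested 5 days after injection of 3% thioglycolate medium, which draws macrophages into the peritoneal cavity, and cultured overnight. Control cells received no treatment. Model cells were exposed for 5.5 h to lipopolysaccharide (LPS) at 500 ng/mL and then for 0.5 h to ATP at 2 mM, a standard way to activate the NLRP3 inflammasome. In MUS cells, muscone (50 µM), a macrocyclic ketone of musk, was added to that scheme 5 h after LPS and 0.5 h before ATP. Each of the 3 groups had 2 libraries, numbered by batch in the labels. Nothing states that the libraries of a group came from separate mice or cultures, so p-values measure the spread between these libraries, which may be technical. LPS and ATP were always given together, so the part of each agent in a difference cannot be told apart.

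Cytokine receptors without a kinase domain hold JAK kinases on their inner tails. Binding of a ligand brings the kinases together, they phosphorylate the receptor and the STAT factors that dock there, and paired STATs enter the nucleus and switch on target genes, among them the SOCS inhibitors that close the loop. In macrophages exposed to LPS, type I interferon, IL-6, IL-10 and IL-27 are made by the cells themselves and act back on them through this relay. Phosphorylation, the step that activates STATs, is not measured in an RNA table. All values below are mRNA levels.

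The 9 genes lie on 6 mouse chromosomes, and each had the same start and end in the deposited table and in the GRCm38 annotation. Stat3, Stat5a and Stat5b are neighbours on chromosome 11. Stat5b spans chr11:100780731-100850724 on the minus strand, Stat5a spans chr11:100859351-100885169 on the plus strand and Stat3 spans chr11:100885098-100939540 on the minus strand. Stat3 and Stat5a overlap by 72 bases at their 3′ ends. Stat6 (chr10:127642986-127660957) and Stat2 (chr10:128270559-128292849) are both on the plus strand of chromosome 10. Jak1 (chr4:101152367-101265282, minus), Jak2 (chr19:29251828-29313080, plus), Tyk2 (chr9:21104068-21131243, minus) and Stat4 (chr1:51987148-52107189, plus) stand alone. Tyk2 is overlapped over 24326 bases by the antisense gene 1700084C06Rik, and the library protocol names no step that marks strand, so reads of this pair cannot be told apart. Stat4 overlaps Gm28177 over 29929 bases and shares 21.7% of its 50-base stretches with it. Stat5a and Stat5b are near copies in parts: 8.21% of the 50-base stretches of Stat5a also occur in Stat5b, and 10.98% of those of Stat5b in Stat5a, so a share of their reads could be placed in either gene.

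The promoter windows of the 4 members called higher in Model than in Control are shown because these genes moved together. Each window holds 250 bases before and 50 bases after a RefSeq transcript start (GRCm38.p6), and all 9 members matched at least 1 of 12 windows. Capitals mark a match to the interferon-stimulated response element (ISRE), searched as GAAANNGAAA on both strands. The windows are chr10:128270248-128270547 (plus) for Stat2, chr19:29251553-29251852 (plus) for Jak2, chr11:100939491-100939790 (minus) for Stat3 and chr11:100860234-100860533 (plus), the second of 2 windows, for Stat5a.
Stat2: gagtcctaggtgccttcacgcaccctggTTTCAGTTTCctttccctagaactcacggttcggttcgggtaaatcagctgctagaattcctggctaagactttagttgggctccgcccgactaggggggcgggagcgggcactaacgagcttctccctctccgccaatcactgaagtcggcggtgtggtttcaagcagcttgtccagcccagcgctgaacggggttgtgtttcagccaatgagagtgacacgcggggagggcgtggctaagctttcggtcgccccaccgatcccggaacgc
Jak2: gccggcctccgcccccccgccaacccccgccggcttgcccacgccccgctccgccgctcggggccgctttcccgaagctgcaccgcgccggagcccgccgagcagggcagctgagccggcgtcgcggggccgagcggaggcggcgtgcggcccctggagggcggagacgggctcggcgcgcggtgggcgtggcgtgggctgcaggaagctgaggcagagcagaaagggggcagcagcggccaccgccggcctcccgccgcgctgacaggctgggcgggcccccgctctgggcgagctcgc
Stat3: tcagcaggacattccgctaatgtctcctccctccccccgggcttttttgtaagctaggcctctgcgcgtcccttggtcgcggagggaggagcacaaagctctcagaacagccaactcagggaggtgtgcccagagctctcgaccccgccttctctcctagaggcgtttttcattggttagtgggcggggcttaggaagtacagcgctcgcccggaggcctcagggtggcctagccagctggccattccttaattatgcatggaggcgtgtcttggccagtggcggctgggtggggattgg
Stat5a: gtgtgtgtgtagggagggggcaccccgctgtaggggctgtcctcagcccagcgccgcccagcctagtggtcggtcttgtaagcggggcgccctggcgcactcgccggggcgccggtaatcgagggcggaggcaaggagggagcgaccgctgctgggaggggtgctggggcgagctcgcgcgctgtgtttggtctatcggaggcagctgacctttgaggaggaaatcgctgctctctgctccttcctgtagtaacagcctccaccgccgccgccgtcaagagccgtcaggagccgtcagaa
The match in Stat2 reads TTTCAGTTTC on the strand of the gene and starts 222 bases before the transcript start. Stat4 held the only other member match, GAAAGTGAAA, 97 bases before the start of its second window's transcript. ISRE letters occurred in windows of 2 of the 9 members, beside 3.99% of 27018 genes and 3.44% of 32841 windows overall. The gamma-activated site, searched as TTCNNNGAA, was found in 0 members and in 9.55% of all genes. The NF-κB letters GGGANTTTCC were found in 0 members and in 0.411% of all windows. The member windows held no overlapping motifs, and a missing match concerns only these letters in these windows. The Jak2 window was 81.0% G and C, against 59.3% in the Stat2 window, 60.7% in the Stat3 window and 67.7% in the Stat5a window shown.

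The libraries were of similar depth, with 15526321 to 17135442 fragments on genes, recovered from the deposited FPKM (fragments normalised to gene length and library size). The deposited per-million scale was 1.45 and 1.34 times the fragment total in the Control libraries and 0.909 to 0.998 times in the other 4, so levels in Control are lower on the FPKM scale than per fragment on genes. Model replicate 1 stood apart by the number of genes with a fragment, 24906 against 17406 to 19200 in the other libraries. All 10 macrophage markers had a mean of at least 1 FPKM, and their sum was 9896 to 14630 in every library. The neutrophil markers summed to 13.9 to 31.0 FPKM in Control and 50.9 to 112 in the treated libraries, nearly all of it S100a8. Of these 10 markers, 1 had a mean of 1 FPKM or more and 4 were listed at 0 in all libraries. Of the T and NK cell markers without Ccl5, 2 of 11 reached 1 FPKM. Most of their sum was Il7r in every library, while Cd3e, Cd3d and Cd3g were each at most 0.0781 FPKM. The sum was 127 to 164 in Control, 77.6 to 108 in Model and 126 to 129 in MUS. With Ccl5, a chemokine that macrophages also make, that sum was 169 to 274, 1388 to 2023 and 826 to 1103. Mast cell markers summed to 0.282 to 0.637 FPKM in Control and 9.66 to 12.9 in the treated libraries. Most of the latter sum was Hdc, and Fcer1a was listed at 0 in every library. Dendritic cell markers summed to 1.52 to 2.501 FPKM in Control and 5.84 to 8.44 in the treated libraries, where most of the sum was Ccr7. B cell and eosinophil markers summed to at most 15.7 and 6.54. The part of other cell types in the results was not tested, and in bulk RNA a change in cells of a type and a change in RNA per cell cannot be told apart.

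**Figure D1:**
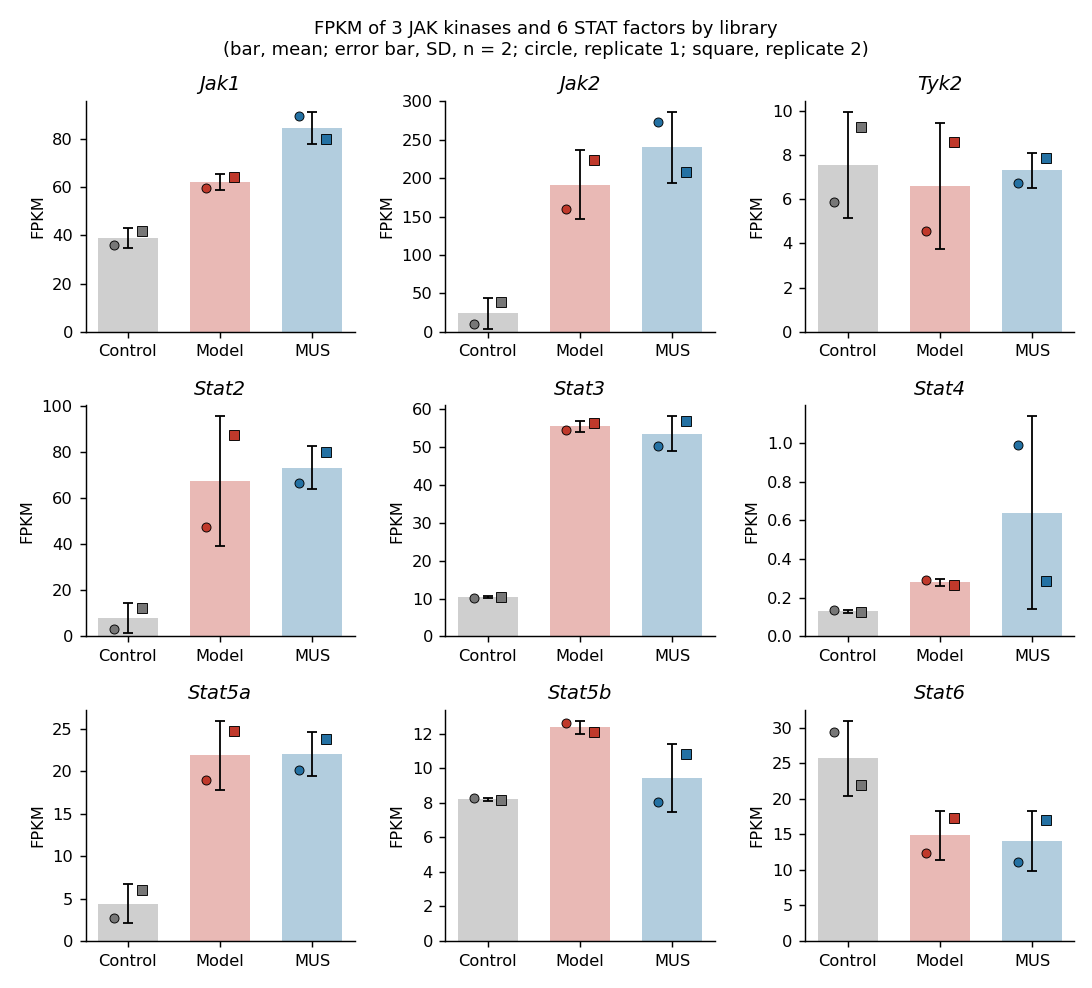
FPKM of the 9 genes in each of the 6 libraries, 1 panel per gene, with the mean (bar), SD (error bar, n = 2) and single libraries (circle, replicate 1; square, replicate 2). Jak2, Stat2, Stat3 and Stat5a are higher in all 4 treated libraries than in both Control libraries, Stat6 is lower, and Tyk2 overlaps between all groups.

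Jak2 was the kinase with the largest difference between untreated and treated PMs. It carries signals of the IL-6, GM-CSF and interferon-γ receptors, among others. Jak2 was at 9.77 and 38.3 FPKM in the Control libraries, at 159.7 and 223.2 FPKM in Model, and at 273.0 and 207.9 FPKM in MUS. Every treated library was above both Control libraries, while Model and MUS overlapped. The Control libraries themselves differed 3.92-fold, and 98.2% of the genes tested differed less between these libraries on the log2 scale. Replicate 2 of Control was also the higher library for Stat2 (3.84-fold) and Stat5a (2.20-fold), while its ratio to replicate 1 was 1.04 for Stat3 and 0.987 for Stat5b.

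Jak1, which serves nearly all receptors of this class including those for interferons and IL-6, differed in smaller steps. Its FPKM was 36.0 and 41.8 in Control, while Model had 59.7 and 64.4 and MUS 89.3 and 79.9. The 3 groups did not overlap, in the order Control, Model, MUS. Tyk2, the partner of Jak1 at the type I interferon receptor and of Jak2 at the IL-12 receptor, was at 5.86 and 9.26 FPKM in untreated cells, 4.57 and 8.61 FPKM after LPS + ATP and 6.76 and 7.86 FPKM with muscone. Its groups overlapped in every pairing.

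Stat2, which joins Irf9 in the interferon-stimulated gene factor 3 (ISGF3) complex, was at 3.23 and 12.4 FPKM in Control, while Model had 47.5 and 87.1 and MUS 66.6 and 79.7. Its partner Irf9 was at 5.21 and 10.4, 35.4 and 29.2, and 33.3 and 30.3 FPKM in the same order of groups. For both genes all treated libraries lay above both Controls, and Control replicate 2 lay above replicate 1.

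Stat3, the main factor downstream of the IL-6 and IL-10 receptors, had the smallest standard error of the members called in Model vs. Control. It was at 10.1 and 10.5 FPKM in untreated cells, 54.5 and 56.5 FPKM after LPS + ATP and 50.3 and 56.8 FPKM with muscone. The treated libraries were all about equally high and far above both Controls.

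The STAT5 pair, which acts downstream of GM-CSF and IL-3, split. Stat5a was at 2.74 and 6.04 FPKM in Control, while Model had 19.0 and 24.8 and MUS 20.2 and 23.9. Stat5b was at 8.25 and 8.14 FPKM in untreated cells, 12.6 and 12.1 FPKM after LPS + ATP and 8.05 and 10.8 FPKM with muscone. Stat5a was thus below Stat5b in both Control libraries and above it in all 4 treated libraries.

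Stat6, the factor of the IL-4 and IL-13 receptors, was the only member tested whose treated libraries all lay below both Controls, with 29.5 and 22.0 FPKM in Control, while Model had 12.4 and 17.3 and MUS 11.1 and 17.0. Its highest treated library, Model replicate 2, was still below its lowest Control. Stat4, which serves the IL-12 receptor in lymphocytes, was barely detected, at 0.136 and 0.124 FPKM in untreated cells, 0.293 and 0.267 FPKM after LPS + ATP and 0.991 and 0.286 FPKM with muscone. These values stand for 12 and 11, 16 and 16, and 58 and 18 fragments. MUS replicate 1 was the library with 58 fragments, and the part of Gm28177, which shares sequence with Stat4, was not tested.

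The order of the levels changed with treatment. In Control it ran Jak1, Stat6, Jak2, Stat3, Stat5b, Stat2, Tyk2, Stat5a and Stat4 by mean FPKM, and of the neighbours in that order Jak1 and Stat6, Stat3 and Stat5b, and Stat5a and Stat4 did not overlap between libraries. In Model, Jak2 stood first at 191 ± 44.9 FPKM (SD, n = 2), followed by Stat2 (67.3 ± 28.0), Jak1 (62.1 ± 3.27), Stat3 (55.5 ± 1.42), Stat5a (21.9 ± 4.08), Stat6 (14.9 ± 3.44), Stat5b (12.4 ± 0.367), Tyk2 (6.59 ± 2.86) and Stat4. Stat2 and Jak1 overlapped in Model, as did Stat6 and Stat5b. In MUS, Jak2 was again first at 240 ± 46.0 FPKM, Jak1 (84.6 ± 6.66) and Stat2 (73.2 ± 9.28) changed places, and no neighbours overlapped.

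Shares within the family showed the same regrouping. Jak2 made up 18.9% and 42.9% of the summed FPKM of the 3 kinases in Control and 70.3% to 75.4% in the 4 treated libraries. Stat6 made up 54.6% and 37.2% of the summed FPKM of the 6 factors in Control and 7.05% to 9.04% in the treated libraries. Stat2 took 5.98% and 20.9% of that sum in Control and 32.5% to 44.0% in the treated libraries.

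A ratio of members within 1 library does not depend on how libraries are scaled. The ratio of Stat5a to Stat5b was 0.332 and 0.741 in Control, while Model had 1.51 and 2.05 and MUS 2.51 and 2.21. The ratio of Jak2 to Jak1 was 0.271 and 0.917 in untreated cells, 2.67 and 3.47 after LPS + ATP and 3.06 and 2.60 with muscone. Stat3 relative to Stat6 was at 0.343 and 0.478 in Control, while Model had 4.38 and 3.26 and MUS 4.54 and 3.33. The first ratio rests on reads that can in part be placed in either gene. These 3 ratios crossed from below 1 in both Controls to above 1 in every treated library. Jak2 relative to Tyk2 was above 1 throughout, at 1.67 and 4.14 in Control and 25.9 to 40.4 in the treated libraries. Such a ratio shows unequal change and does not tell which gene moved. With 2 libraries against 2, an exact permutation test cannot give a two-sided p below 0.333, so no test was made of single ratios.

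**Figure D2:**
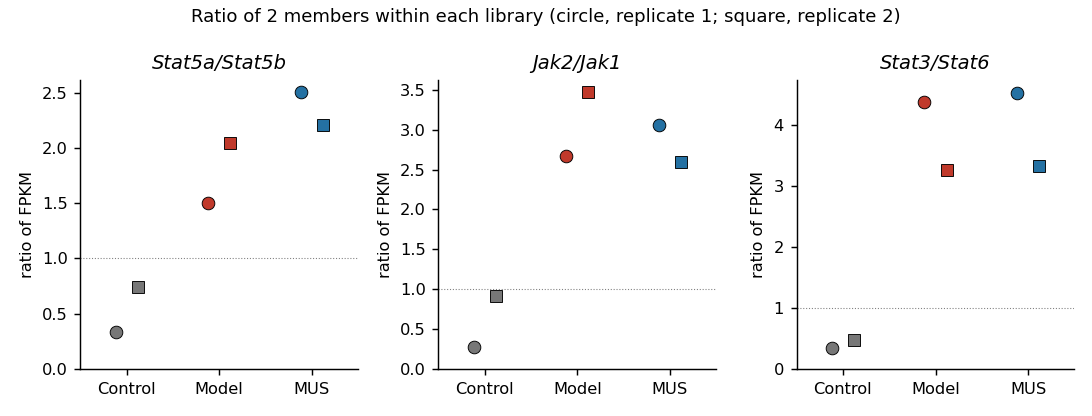
Ratio of FPKM of 2 members within each library for Stat5a over Stat5b, Jak2 over Jak1 and Stat3 over Stat6 (circle, replicate 1; square, replicate 2; dotted line, equal FPKM). Both Control libraries lie below 1 and all Model and MUS libraries above 1 in each panel.

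Model vs. Control asked which members differed after LPS + ATP. Jak2, Stat2, Stat3 and Stat5a were upregulated, so 4 of the 8 members tested were called higher and 0 lower, while 9.5% of all 9794 genes tested were called higher and 5.56% lower. A gene was tested if its mean over the 6 libraries was at least 1 FPKM, which Stat4 did not reach, and called if limma's moderated test on log2(FPKM + 1) gave an adjusted p of at most 0.05 with a log2 fold change beyond 1. A fold change on this scale understates the change of low genes. The libraries of Model lay above those of Control without overlap for 6 of the 8 members and below for 1, against 32.6% and 28.5% of all genes. The median log2 fold change was 1.40 over the 8 members and 0.04 over all genes.

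By role, 1 of the 3 kinases was called. Jak2 rose by 3.21 on the log2 scale (SE 0.59, adjusted p = 0.0142 in limma), and its mean FPKM was 7.96-fold higher. Within batch 1 the Model library had 16.3 times the Jak2 FPKM of the Control library, and within batch 2 it had 5.82 times. Jak1 had a log2 fold change of 0.66 (95% interval 0.01 to 1.31, adjusted p = 0.141 in limma) and was not called, although its libraries did not overlap. Tyk2 was at -0.20 (interval -0.98 to 0.58, adjusted p = 0.704 in limma).

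Among the factors, Stat2 rose by 3.12 (SE 0.56, adjusted p = 0.0129 in limma), and its mean FPKM was 8.62-fold higher. Stat3 rose by 2.32 (SE 0.25, adjusted p = 0.00296), with ratios of 5.38 in batch 1 and 5.37 in batch 2. Stat5a rose by 2.15 (SE 0.34, adjusted p = 0.00915). Stat2 was 14.7 and 7.04 times as high as in Control within batches 1 and 2, and Stat5a was 6.93 and 4.10 times as high. The pair of near copies thus divided, since Stat5b was at 0.54 (interval -0.01 to 1.09, adjusted p = 0.154) and was not called. Stat6 was at -0.76 (interval -1.50 to -0.01, adjusted p = 0.145), with a ratio of 0.422 in batch 1 and 0.786 in batch 2.

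The Stat3 and Stat5a calls held when any 1 library was left out, whereas those of Jak2 and Stat2 did not in every case. Such a fit leaves 1 library in a group, so a lost call does not show that the difference rested on 1 library. Jak2 lost its call without Model replicate 1 (log2 fold change 3.45, adjusted p = 0.0631 in limma) and without Model replicate 2 (2.96, adjusted p = 0.0622). Stat2 lost its call without Model replicate 2 (2.69, adjusted p = 0.0599). Without Control replicate 1, the smaller Control value, the calls stayed with log2 fold changes of 2.27 for Jak2, 2.29 for Stat2 and 1.69 for Stat5a, and without Control replicate 2 these were 4.14, 3.95 and 2.60. With no filter on low values, which raised the number of genes tested to 30192, Stat3 kept its call, while Jak2 (adjusted p = 0.109), Stat2 (0.103) and Stat5a (0.0754) lost theirs.

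**Figure D3:**
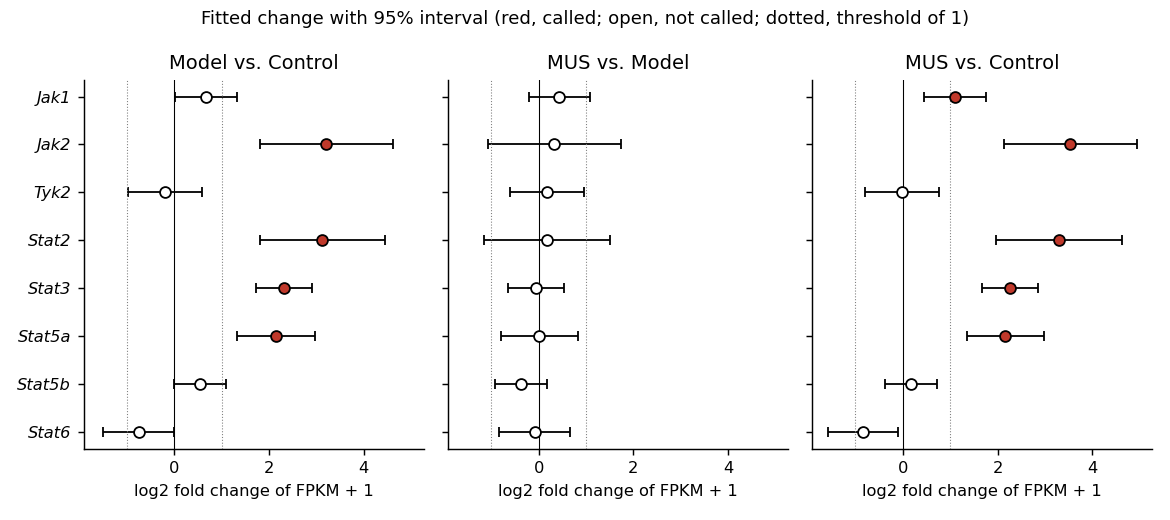
Fitted log2 fold change of FPKM + 1 with its 95% interval for the 8 members tested, in Model vs. Control, MUS vs. Model and MUS vs. Control (red, called; open, not called; dotted lines, a change of 1 in either direction). Stat3 rose by 2.32 in Model vs. Control with the narrowest interval of the called members, and every interval in MUS vs. Model contains 0.

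The size of the changes, large and small, depended on how libraries were scaled. Scaling by the fragments on genes shifted the median of all genes in Model vs. Control from 0.04 to -0.40, scaling without mitochondrial genes and the 20 highest genes shifted it to -0.46, voom on recovered fragments to -0.50, and quantile normalization to -0.06. Jak2, Stat2, Stat3 and Stat5a stayed called under each of these, with smaller log2 fold changes than in the deposited scale. These were 2.59 to 2.74 for Jak2, 2.55 to 2.86 for Stat2, 1.72 to 1.97 for Stat3 and 1.60 to 2.03 for Stat5a. Relative to the median of all genes, Jak2 was at 3.16 in the deposited scale and at 2.73 to 3.24 in the others, and Stat3 was at 2.28 and at 2.03 to 2.38. Stat6 was called lower when scaled by fragment totals (-1.28, adjusted p = 0.0356 in limma), without mitochondrial and highest genes (-1.36, adjusted p = 0.0321) and in voom (-1.34, adjusted p = 0.0262). It was at -1.18 (adjusted p = 0.0618) after quantile normalization. Relative to the median, Stat6 was at -0.80 in the deposited scale and between -1.12 and -0.84 in the others. Jak1 was at -0.01 after quantile normalization, and Stat5b was at -0.04 when mitochondrial and highest genes were left out of the scaling. Relative to the median of all genes, which moved with the scaling, Jak1 was at 0.62 in the deposited scale and between 0.052 and 0.63 in the others, and Stat5b was at 0.50 and between 0.42 and 0.55, so neither changed sign.

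**Figure D4:**
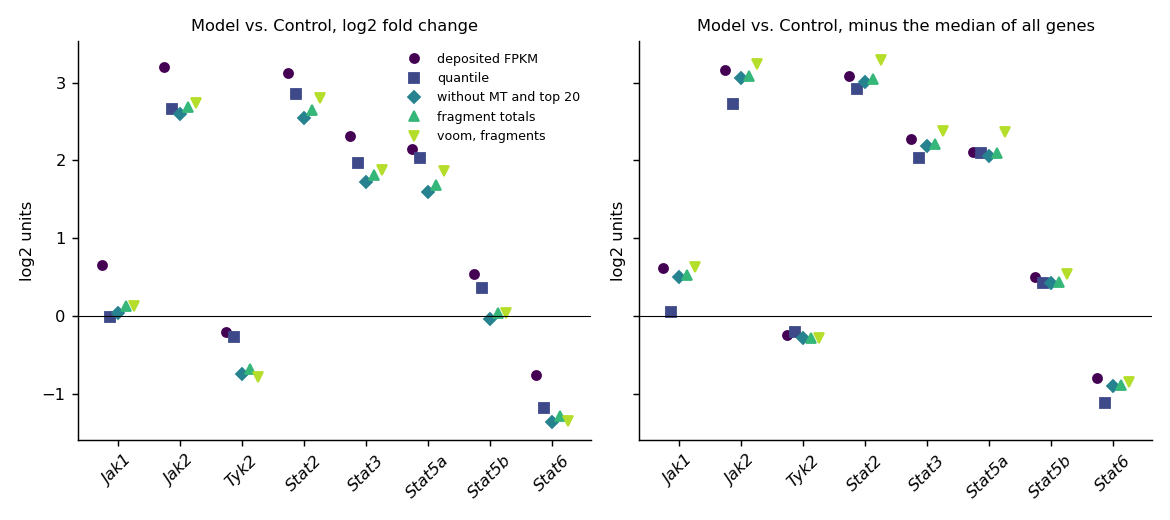
Log2 fold change of the 8 members tested in Model vs. Control under 5 ways of scaling the libraries, as fitted (left) and after subtraction of the median of all genes (right). Jak2, Stat2, Stat3 and Stat5a lie above 1 in both panels under all 5, Stat6 lies below 0, and Jak1, Tyk2 and Stat5b lie within 1 of 0.

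MUS vs. Model asked whether muscone added before ATP changed the members. Called members numbered 0 of 8, and 0 of 8 had an unadjusted p below 0.05 in limma, while 0% of all genes were called and 8.42% had such a p. The voom fit also called 0 members. Libraries did not overlap for Jak1, which was higher in MUS, and Stat5b, which was lower, that is 1 of 8 in each direction against 21.2% of all genes higher and 21% lower. Jak1 had a log2 fold change of 0.44 (interval -0.21 to 1.09) and Stat5b of -0.37 (interval -0.92 to 0.18), both with adjusted p = 0.733 in limma. Within batches 1 and 2 the MUS library had 1.495 and 1.24 times the Jak1 FPKM of the Model library, and 0.638 and 0.893 times the Stat5b FPKM.

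The members that were high in Model were similarly high in MUS, with intervals of unequal width. Stat3 was at -0.05 (interval -0.64 to 0.54) and Stat5a at 0.02 (interval -0.80 to 0.83). For Jak2 the value was 0.33 (interval -1.07 to 1.74) and for Stat2 it was 0.18 (interval -1.15 to 1.499), so changes of more than 1 in either direction lay within the intervals of both. Stat6 was at -0.09 (interval -0.83 to 0.66) and Tyk2 at 0.18 (interval -0.60 to 0.96). A p that misses the threshold does not show that the groups were alike.

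MUS vs. Control, which shares its Control libraries with Model vs. Control, gave 5 members called higher of 8 and 0 lower, against 11.3% and 8.91% of all genes. Libraries did not overlap for 5 members that were higher and 1 that was lower, against 39.6% and 33.8% of all genes. The log2 fold changes in limma were 3.54 for Jak2 (adjusted p = 0.00836), 3.30 for Stat2 (0.00861), 2.27 for Stat3 (0.00253), 2.16 for Stat5a (0.00710) and 1.10 for Jak1 (0.0290). Stat6 was at -0.84 (adjusted p = 0.0938), Stat5b at 0.17 and Tyk2 at -0.02. The Jak1 value lay just past the threshold of 1. It was 0.48 after quantile normalization, 0.58 when scaled by fragment totals, 0.57 without mitochondrial and highest genes and 0.58 in voom, with no call in any of them. Relative to the median of all genes it was 1.06 in the deposited scale, 0.97 by fragment totals, 0.96 without mitochondrial and highest genes and 1.07 in voom, but 0.54 after quantile normalization.

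Several of these calls were lost when 1 library was left out, as were calls among all genes. Without MUS replicate 1, Stat3 (2.35, adjusted p = 0.0455 in limma) was the only member called, and the adjusted p was 0.236 for Jak1, 0.0861 for Jak2, 0.0733 for Stat2 and 0.0665 for Stat5a. Without MUS replicate 2, Jak1 (0.142), Stat2 (0.0618) and Stat5a (0.0573) were not called, and without Control replicate 1 Jak1 was not (adjusted p = 0.0794). Stat6 was called lower at -1.24 (adjusted p = 0.0436) after quantile normalization, at -1.36 by fragment totals, at -1.37 without mitochondrial and highest genes and at -1.43 in voom. Relative to the median of all genes, which moved to between -0.48 and -0.39 in the latter 3 settings, Stat6 was at -0.88 in the deposited scale and between -0.97 and -0.95 in those 3, and at -1.19 after quantile normalization.

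The genes around the members were read from lists of ligands, receptors, inhibitors and targets. In Model vs. Control, 12 of 14 tested ligands were called higher and 0 lower, beside 9.5% and 5.56% of all genes. Their median log2 fold change was 3.80, beside 0.04 over all genes. Il6, which acts through Jak1, Jak2 and Stat3, rose by 8.82 in limma (adjusted p = 5.0e-04). Il27, the gene of a subunit of IL-27, which acts on the same gp130 chain, rose by 6.28 (adjusted p = 0.00118). The IL-12 subunits Il12b and Il12a rose by 5.76 and 5.25. Ifnb1, an interferon read by Jak1, Tyk2 and Stat2, was listed at 0 in both Controls with a mean of 1.86 ± 1.65 FPKM in Model, and it was not called (adjusted p = 0.0595). Csf2rb, the shared chain of the GM-CSF and IL-3 receptors upstream of Jak2 and Stat5a, was at 95.7 ± 17.0 FPKM in Control and 153 ± 8.55 in Model (log2 fold change 0.68, adjusted p = 0.172 in limma).

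Of 22 receptor chains tested, 5 were called higher and 2 lower (median 0.46), beside 9.5% and 5.56% of all genes. The IL-15 receptor chain Il15ra rose by 3.78, Il13ra1 by 2.10 and Il4ra by 1.91 on the log2 scale. The latter pair forms a receptor that signals through Stat6, whose Model libraries lay below both Controls but which was not called. Il6ra, the IL-6 binding chain upstream of Stat3, fell by 1.48 (adjusted p = 0.0290 in limma), from 6.64 ± 3.13 to 1.65 ± 0.632 FPKM. Its signalling partner Il6st was at 10.9 ± 2.25 FPKM in Control and 5.05 ± 2.43 in Model (log2 fold change -1.03, adjusted p = 0.0689). Il10ra, another route to Stat3, rose by 1.10 (adjusted p = 0.0297), and of the type I interferon receptor Ifnar2 rose by 1.43 (adjusted p = 0.0163) while Ifnar1 was at 1.08 (adjusted p = 0.0987).

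Among 19 inhibitors tested, 5 were called higher and 0 lower, beside 9.5% and 5.56% of all genes. The median was 0.04, as over all genes. Usp18, a brake on the type I interferon receptor, rose by 5.89, and the SOCS family inhibitors Socs3, Socs1 and Cish rose by 5.58, 2.80 and 2.66. Socs3 went from 8.46 ± 7.30 to 377 ± 3.84 FPKM.

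Of all genes, 9.5% were called higher and 5.56% lower in this comparison. Targets of the ISGF3 complex that holds Stat2 were called higher in 15 of 15 cases, Irf9 included (1.98, adjusted p = 0.0112 in limma), with a median of 5.89. Cxcl10, Rsad2, Isg15 and Ifit1 rose by 8.47, 7.01, 6.80 and 6.67. Their Control libraries differed widely, with Cxcl10 at 0.505 and 29.2 FPKM and Rsad2 at 4.99 and 53.1. Isg15 was at 1.45 and 20.1 FPKM in Control, and Ifit1 at 1.25 and 36.1. Of 15 targets of Stat3, 6 were called higher and 1 lower (median 1.25). Socs3, Timp1 and Il1rn rose, the latter pair by 5.15 and 4.36, and Vegfa, an angiogenic factor, fell by 2.00. Of 8 tested targets of Stat5a and Stat5b, 5 were called higher, with Ccnd2 (a cyclin, 4.07), Cish, Osm (2.34) and Pim1 (1.67) at the top. Of 12 tested targets of Stat6, 4 were called higher and 1 lower (median 0.39). The chemokines Ccl22 and Ccl24 rose by 2.90 and 2.05, while Pparg, a lipid regulator of alternatively activated macrophages, fell by 2.25. Many of these genes also answer to NF-κB and other factors, and the lists overlap, Socs2, Socs3, Cish, Usp18, Il4ra, Osm, Pim1 and Bcl6 standing in more than 1 of them.

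Without Model replicate 1, fewer ISGF3, Stat3, STAT5 and Stat6 targets and fewer receptors were called. Stat3 targets called were also fewer without MUS replicate 1 or 2. Receptors called were fewer without Control replicate 1, Model replicate 2, MUS replicate 1 or MUS replicate 2. Calls among all genes fell in each of these fits too. With no filter on low values, 4 ISGF3 targets, 3 Stat3 targets, 2 STAT5 targets, 1 Stat6 target and 1 receptor were called. Of all 30192 genes then tested, 228 were called higher and 32 lower.

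**Figure D5:**
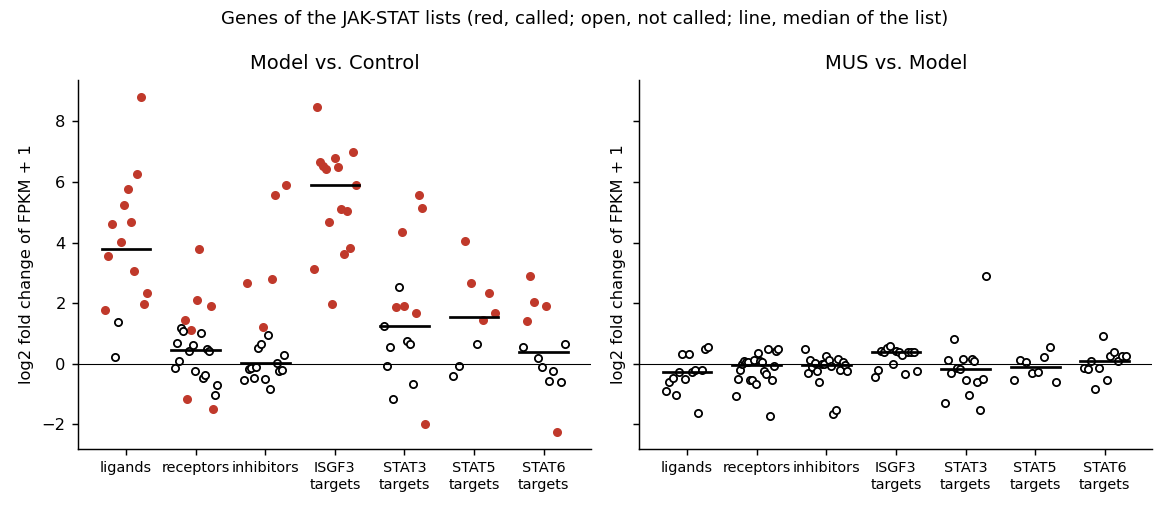
Log2 fold change of FPKM + 1 of each tested gene of 7 lists around the members, in Model vs. Control (left) and MUS vs. Model (right), with the median of each list as a line (red, called; open, not called). On the left all 15 ISGF3 targets and 12 of 14 ligands are called higher, and on the right no gene is called.

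In MUS vs. Model, no gene of these lists was called in limma with all 6 libraries, against 0% of all genes. The count with an unadjusted p below 0.05 was 2 of 22 receptors, 3 of 14 ligands, 2 of 19 inhibitors, 0 of 15 ISGF3 targets, 4 of 15 Stat3 targets, 0 of 8 STAT5 targets and 2 of 12 Stat6 targets, beside 8.42% of all genes. Socs1 had a log2 fold change of -1.65 and Socs3 of -1.51 (adjusted p = 0.257 and 0.537). Vegfa was at 28.8 ± 3.03 FPKM in MUS and 3.02 ± 0.0990 in Model (log2 fold change 2.88, adjusted p = 0.257). It was called when only the Model and MUS libraries entered limma (adjusted p = 0.0346) and without Control replicate 1 (0.0380) or 2 (0.0453), and it was the only listed gene called in this comparison under any of the alternatives. The ligand subunit Il27 was at -1.63 (adjusted p = 0.463), and the receptor chains Il3ra and Csf2ra were at -1.72 and -1.08 (adjusted p = 0.397 and 0.475).

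In MUS vs. Control, where 11.3% of all genes were called higher and 8.91% lower, the calls were 5 of 22 receptors higher and 3 lower, and 3 of 12 Stat6 targets higher and 1 lower. Calls in the other lists were all higher, with 11 of 14 ligands, 5 of 19 inhibitors, 15 of 15 ISGF3 targets, 6 of 15 Stat3 targets and 5 of 8 STAT5 targets. Without MUS replicate 1, fewer receptors, inhibitors and ISGF3, Stat3, STAT5 and Stat6 targets were called. Fewer receptors, inhibitors, Stat3 targets and Stat6 targets were called without MUS replicate 2, and fewer receptors and inhibitors without Control replicate 1. Calls among all genes fell in each of these fits too. With no filter on low values, 1 receptor, 2 inhibitors, 5 ISGF3 targets, 2 Stat3 targets and 1 Stat6 target were called. Of all 30192 genes then tested, 335 were called higher and 121 lower.

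The members also followed each other across the 6 libraries, which fall into untreated and treated, so that any gene with a large difference correlates with any other. Pearson's r on log2(FPKM + 1) was 0.996 between Stat2 and Stat5a, 0.990 between Jak2 and Stat2 and 0.938 between Jak2 and Stat3. It was -0.879 between Jak2 and Stat6, while Tyk2 had an r between -0.235 and 0.262 with every other tested member. Among 5271 genes with a range of at least 1, those most like Jak2 were Clic4, Acbd3 and Adgrg6 (r = 0.999 each). Those most like Stat2 were Zfp719, Znfx1 and Zc3hav1 (r = 0.998 each), and Hdc and Gm6904 were among those most like Stat3 (r = 0.999 each). Plagl2, Pgs1 and Tmem39a were most like Stat5a (r = 0.998 to 1.00). These values describe 6 libraries and carry no test.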

How the data were processed

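RNA-seq was performed on 6 libraries of PMs, 2 per group, and groups and replicate numbers were taken from the sample labels. The authors deposited 1 table of FPKM with 1 column per library, and 0 columns had no sample. The methods name RSEM, the submitters' processing notes name HISAT2, featureCounts 1.5.0-p3 and GRCm39, but the table's coordinates follow GRCm38: of 54409 genes also found in GENCODE M21, 98.3% had identical start and end positions. FPKM times gene length was a whole multiple of 1 step in each library for 100% of the values checked (tolerance 0.1), which gave the fragments per gene. They cover counting error only.

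The fit used limma 3.58.1 in R 4.3.3 on log2(FPKM + 1), with all 6 libraries, genes with a mean of at least 1 FPKM, a mean-variance trend and Benjamini-Hochberg adjustment. DEGs had an adjusted p of at most 0.05 and a log2 fold change beyond 1. In Model vs. Control 1475 of 9794 genes were DEGs (930 upregulated and 545 downregulated), in MUS vs. Model 0 (825 at an unadjusted p below 0.05) and in MUS vs. Control 1980. The test was checked on simulated data. Python 3.11.15 with pandas 2.3.3, NumPy 2.4.6 and Matplotlib 3.10.9 prepared values and figures.

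The labels give the replicate number as the batch, so same-numbered libraries were taken as paired. Their deviations from the group means correlated at 0.119 between Control and Model, 0.136 between Model and MUS and -0.0928 between Control and MUS. The design without a block was kept, and the block was an alternative among 16, which also changed the pseudocount, filter, trend, scaling, libraries and test.

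All 9 genes are named. From each list, up to 4 called genes of largest change without overlap between libraries are named per comparison or, with no call, up to 2 with the smallest p, plus chosen receptor chains and Irf9. The genes most like each called member, 3 by Pearson's r, are named too, except that 1 is not reported here. The genes and lists were chosen with earlier results of these data known. Sequences were from RefSeq on GRCm38.p6.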

Additional observations from a re-analysis of the deposited data

How the results depend on the processing

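Over 16 alternatives, 337 log2 fold changes of the members kept their direction and side of the threshold, 22 lost a call, 7 gained one and 18 changed sign. The number of DEGs in Model vs. Control was 260 with no filter, 797 with only the 4 libraries compared, 2361 with scaling that left out mitochondrial and the 20 highest genes and 2734 in voom, and it ranged from 692 (without Model replicate 1) to 2077 when 1 library was left out, where the lone library of a group is assumed to vary like the others. That in MUS vs. Control was 456 with no filter, 3144 in voom and 184 (without MUS replicate 1) to 2398 with a library left out. That in MUS vs. Model was 1 with a pseudocount of 0.1, 7 with only the libraries compared and 0 to 31 (without Model replicate 2) with a library left out. DEGs in Model vs. Control were 930 higher and 545 lower in the deposited scale, 707 and 715 after quantile normalization, 646 and 1554 by fragment totals, 585 and 1776 without mitochondrial and highest genes and 684 and 2050 in voom. In MUS vs. Control these were 1107 and 873, 885 and 1102, 738 and 1953, 721 and 1964, and 758 and 2386. With the replicate block, which paired libraries by number, MUS vs. Model had 4 DEGs and no call of a member changed. Members called numbered 1 with no filter in Model vs. Control and in MUS vs. Control, and 2 to 4 and 1 to 5 with a library left out.

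The signs that changed belonged to comparisons in which the member was not called. In Model vs. Control, Jak1 was at -0.013 after quantile normalization and Stat5b at -0.037 without mitochondrial and highest genes. In MUS vs. Control, Stat5b was at -0.33 without mitochondrial and highest genes, -0.32 by fragment totals and -0.35 in voom, and in MUS vs. Model Stat3 was at 0.031 without mitochondrial and highest genes. Relative to the median of all genes, which these scalings moved, Jak1 and Stat5b stayed above 0 in each of these comparisons (Stat5b at 0.070, 0.072 and 0.13 in MUS vs. Control). With 1 library left out, values in Model vs. Control ran from -0.59 to 0.20 for Tyk2. With 1 library left out, values in MUS vs. Model ran from -0.21 to 0.57 for Tyk2, from -0.26 to 0.61 for Stat2, from -0.17 to 0.20 for Stat5a, from -0.38 to 0.20 for Stat6 and from -0.14 to 0.033 for Stat3. With 1 library left out, values in MUS vs. Control ran from -0.31 to 0.27 for Tyk2 and from -0.023 to 0.36 for Stat5b.
Without a filter more genes were tested, and the spread was also estimated anew over them. The cause of the differences between settings was not tested. Both Control libraries differed most for the called members Jak2 and Stat2, and n = 2 per group limits every interval. Stat4, with 11 to 58 fragments, was at 0.18, 0.32 and 0.50 in Model vs. Control, MUS vs. Model and MUS vs. Control without a filter, with adjusted p from 0.407 to 0.671 in limma.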
